A study of Mus musculus with 6 samples.

Results

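Cyclins, the cyclin-dependent kinases (CDKs) they activate, the inhibitors of these kinases and the E2F factors set the pace of the cell division cycle. The members described here are 70 genes of the 21604 in the deposited table. They were chosen by symbol: Ccn with a letter and a number, Ccnc, Ccnf, Ccnh, Ccnk, Cdk or Cdkn with a number, the Cdc25 phosphatases, E2f with a number, the pocket protein genes Rb1, Rbl1 and Rbl2, and Wee1. Because the rule reads the start of a symbol, it also takes in proteins that only bind a CDK or are named after one, and the pseudogene Ccnb1-ps. The rule itself uses no measured value, but the family was chosen with earlier results of these data known. Those results included that S phase and mitosis genes were higher.

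RNA was sequenced from RAW264.7 cells, a wild-type mouse macrophage-like line that grows continuously in culture, in 6 libraries. In 3 of them the cells had received PE-CUR at 2 mg/mL and lipopolysaccharide (LPS, from the outer membrane of bacteria, which macrophages sense) at 100 ng/mL, both for 24 h. In the other 3 they had received the same dose of LPS alone for 24 h. The series title names curcumin-loaded Pickering emulsions (droplets held by solid particles) for periodontitis, the design text calls the agent PE-CUR, and the stated questions concern inflammation and osteoclasts, not division. All 6 libraries share LPS, and neither unstimulated cells nor an emulsion without curcumin stands in any group analysed here. Nothing in the labels says that replicates are separate cultures, so p-values measure the spread between libraries, which may be technical.

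As background, D cyclins with CDK4 and CDK6 respond to growth signals in G1 and phosphorylate the retinoblastoma (pocket) proteins, which otherwise hold E2F factors in check. Freed E2F factors switch on genes of DNA replication, E cyclins with CDK2 start S phase, and A and B cyclins with CDK1 carry cells through G2 and mitosis. INK4 and CIP/KIP proteins brake these kinases, WEE1 adds an inhibitory phosphate and CDC25 phosphatases remove it. Macrophage lines divide while macrophages of most tissues divide little, and LPS is known to slow the division of cultured macrophages.

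Total counts were 28530750 to 35231076 in LPS plus PE-CUR libraries and 32005736 to 35276533 in LPS libraries. All 10 macrophage markers, among them Csf1r, Cd68, Lyz2 and Spi1, had counts in every library, 2 being called higher and 4 lower (edgeR), with summed levels of 9751 to 10584 CPM (counts scaled to library size) in LPS plus PE-CUR and 11757 to 12249 CPM in LPS. Fcgr3, an Fc receptor gene, had 286, 547 and 487 counts in LPS plus PE-CUR, against 3316, 4329 and 4461 counts in LPS, and Adgre1, the F4/80 antigen gene, had 1003, 844 and 686 counts in LPS plus PE-CUR, against 2869, 2525 and 3274 counts in LPS. The part of these differences in the results below was not tested. Liver transcripts were also present: 10 markers such as Alb summed to 0.186, 0.0568 and 80.3 CPM in LPS plus PE-CUR replicates 1 to 3, against 68.1, 51.1 and 65.1 CPM in LPS. LPS plus PE-CUR replicate 2 held collagen transcripts, with a summed level of 12.1 CPM for 5 fibroblast markers, against 0.280 to 2.35 CPM in the other libraries. In a fit limited to the 4 libraries with liver transcripts (LPS plus PE-CUR replicate 3 and the LPS libraries, chosen after seeing the data), 38 members were higher and 9 lower, against 39 and 11 in all 6 libraries. That fit assumes that the lone library varies like the LPS libraries.

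Of the 70 members, 66 had enough counts to be tested in the fit across all genes, and 4 (Ccnb1ip1, Ccnb3, Cdkn1c and Cdkn2b) did not exceed 4 counts in any library. At a Benjamini-Hochberg adjusted p under 0.05 over all 13014 genes tested (edgeR quasi-likelihood test, two-sided, 3 against 3 libraries), 39 members were higher in LPS plus PE-CUR and 11 were lower. These counts are 59.1% and 16.7% of the tested members, against 30.8% and 32.7% of all genes tested. In either direction 75.8% of tested members passed, against 63.4% of all genes. At least 2-fold changes were called for 14 members higher (21.2%, against 6.37% of all genes) and for 1 lower, Ccng2 (1.52%, against 11.5%). The median log2 fold change (log2 fold hereafter, LPS plus PE-CUR over LPS) was 0.31 over the tested members and -0.03 over all tested genes. Libraries of both groups did not overlap in 56 of 66 members (84.8%), against 69.0% of all genes. Called lower members numbered 7 without LPS plus PE-CUR replicate 2. In bulk RNA, more cells in a given phase of the cycle and more RNA of a gene per cell cannot be told apart, and fewer cells of a type and less RNA per cell cannot be either.

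**Figure D1:**
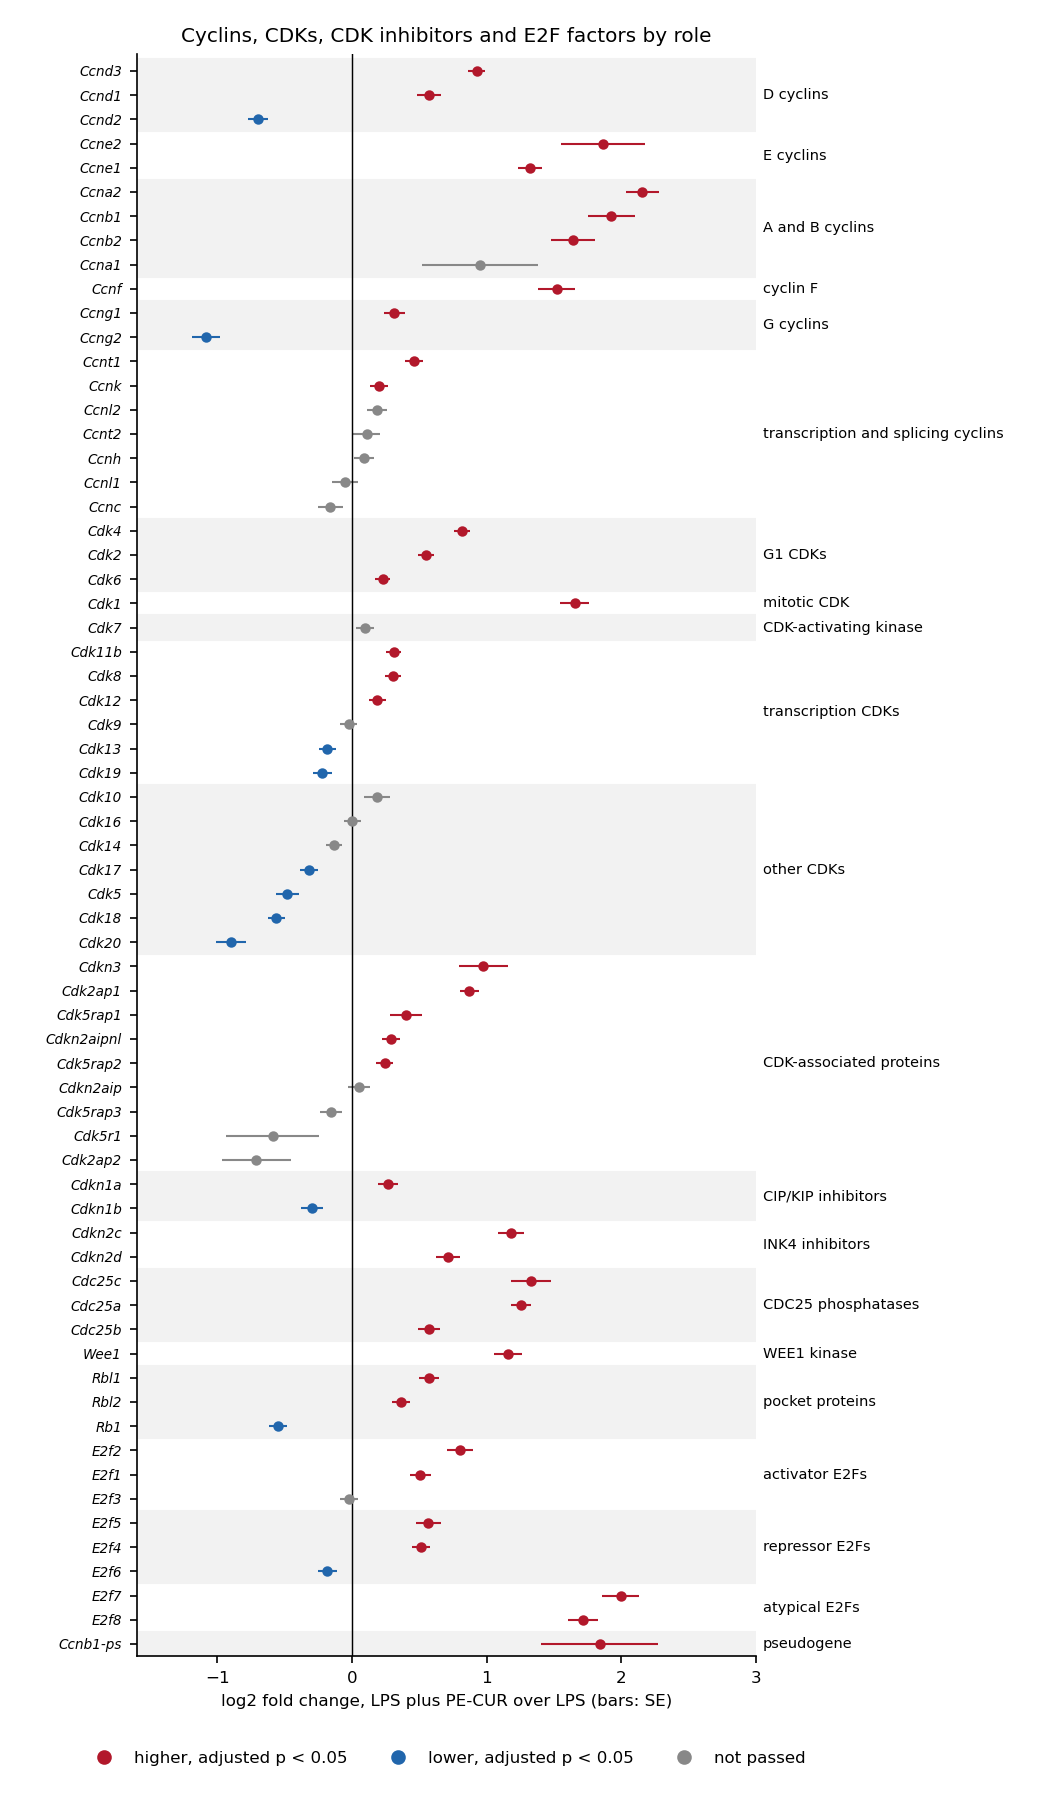
Log2 fold change of LPS plus PE-CUR over LPS (horizontal axis) with its SE for the 66 tested members, grouped by role from top to bottom. Points are coloured by the edgeR call at an adjusted p under 0.05; Ccna2, Ccnb1, Ccnb2, both E cyclins, Ccnf, Cdk1, E2f7 and E2f8 are among those above 1, while Ccng2 and Cdk20 lie lowest.

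The start-site windows of the 9 members that were called at least 2-fold higher and matched the table are shown, all 10 of them, so that shared and unshared letters can be read. Ccna2, Ccnb1-ps, Ccne2, Cdc25c and Wee1, also called at least 2-fold higher, had no window there. Ccng2, the member called at least 2-fold lower, follows. Each window runs from 250 bases before to 50 bases after an annotated start, 300 bases in all, from RefSeq on GRCm38.p6, the assembly of mm10. Capitals mark matches, on either strand, to CCAAT (the NF-Y box), to TTTGAA or TTTAAA (forms of the cell cycle homology region) or to 1 of 4 E2F 8-mers (TTTGGCGC, TTTCCCGC, TTTGCCGC and TTTCGCGC).
Ccnb1, chr13:100786437-100786736, minus strand: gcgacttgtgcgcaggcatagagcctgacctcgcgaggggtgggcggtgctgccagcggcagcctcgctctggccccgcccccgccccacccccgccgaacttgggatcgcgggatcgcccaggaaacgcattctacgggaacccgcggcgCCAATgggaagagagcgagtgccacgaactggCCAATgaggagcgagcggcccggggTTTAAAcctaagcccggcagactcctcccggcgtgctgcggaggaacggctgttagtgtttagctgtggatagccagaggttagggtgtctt
Ccnb2, chr9:70421505-70421804, minus strand: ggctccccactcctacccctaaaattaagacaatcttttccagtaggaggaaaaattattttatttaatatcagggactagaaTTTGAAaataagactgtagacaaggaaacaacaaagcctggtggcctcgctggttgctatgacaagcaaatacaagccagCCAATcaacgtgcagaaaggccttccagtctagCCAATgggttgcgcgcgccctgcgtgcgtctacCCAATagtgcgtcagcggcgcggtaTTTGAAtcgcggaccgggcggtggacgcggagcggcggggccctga
Cdk1, chr10:69352863-69353162, minus strand: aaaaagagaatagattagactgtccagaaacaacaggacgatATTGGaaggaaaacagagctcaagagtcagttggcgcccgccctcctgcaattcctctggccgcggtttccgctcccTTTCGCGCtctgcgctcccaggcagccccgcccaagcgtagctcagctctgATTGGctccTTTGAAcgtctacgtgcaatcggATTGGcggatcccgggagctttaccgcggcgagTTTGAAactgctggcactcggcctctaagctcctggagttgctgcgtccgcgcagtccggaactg
Ccnf, chr17:24251360-24251659, minus strand: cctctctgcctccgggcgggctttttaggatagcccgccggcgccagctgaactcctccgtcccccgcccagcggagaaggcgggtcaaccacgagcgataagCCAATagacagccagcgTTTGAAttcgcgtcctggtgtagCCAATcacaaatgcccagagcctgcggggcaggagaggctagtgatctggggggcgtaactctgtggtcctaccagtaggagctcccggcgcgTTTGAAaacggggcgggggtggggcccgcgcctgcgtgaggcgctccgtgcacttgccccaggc
Cdc25a, chr9:109875329-109875628, plus strand: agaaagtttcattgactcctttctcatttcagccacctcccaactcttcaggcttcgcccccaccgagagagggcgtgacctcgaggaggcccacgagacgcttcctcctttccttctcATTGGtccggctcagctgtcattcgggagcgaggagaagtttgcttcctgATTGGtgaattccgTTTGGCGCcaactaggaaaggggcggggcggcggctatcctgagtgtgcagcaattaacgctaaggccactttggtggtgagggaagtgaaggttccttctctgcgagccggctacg
E2f7, chr10:110745189-110745488, plus strand: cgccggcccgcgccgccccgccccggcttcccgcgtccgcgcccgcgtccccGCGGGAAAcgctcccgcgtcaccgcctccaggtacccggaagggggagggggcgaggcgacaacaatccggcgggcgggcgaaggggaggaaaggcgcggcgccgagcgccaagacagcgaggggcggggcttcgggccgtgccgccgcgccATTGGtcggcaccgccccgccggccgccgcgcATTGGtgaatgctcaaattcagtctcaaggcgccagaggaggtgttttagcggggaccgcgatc
E2f8, chr7:48881547-48881846, minus strand: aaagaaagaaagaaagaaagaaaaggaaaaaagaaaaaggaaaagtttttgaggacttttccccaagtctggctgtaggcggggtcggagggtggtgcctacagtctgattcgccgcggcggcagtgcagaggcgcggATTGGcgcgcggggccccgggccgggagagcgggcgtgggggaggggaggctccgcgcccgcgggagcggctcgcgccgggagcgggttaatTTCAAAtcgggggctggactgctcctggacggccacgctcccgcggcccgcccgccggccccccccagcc
Cdkn2c, chr4:109666707-109667006, minus strand: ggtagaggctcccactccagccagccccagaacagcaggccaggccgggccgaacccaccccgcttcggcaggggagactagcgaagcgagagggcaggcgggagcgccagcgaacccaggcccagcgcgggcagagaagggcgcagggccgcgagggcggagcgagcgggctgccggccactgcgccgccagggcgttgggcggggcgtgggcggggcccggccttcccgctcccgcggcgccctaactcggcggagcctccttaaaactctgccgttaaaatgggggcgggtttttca
Cdkn2c, chr4:109665323-109665622, minus strand: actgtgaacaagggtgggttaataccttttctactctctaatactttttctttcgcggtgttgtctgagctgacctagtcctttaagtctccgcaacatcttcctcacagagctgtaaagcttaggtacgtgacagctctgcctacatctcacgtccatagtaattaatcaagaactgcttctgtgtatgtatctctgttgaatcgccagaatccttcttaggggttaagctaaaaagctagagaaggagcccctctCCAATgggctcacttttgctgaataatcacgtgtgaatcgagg
Ccne1, chr7:38107441-38107740, minus strand: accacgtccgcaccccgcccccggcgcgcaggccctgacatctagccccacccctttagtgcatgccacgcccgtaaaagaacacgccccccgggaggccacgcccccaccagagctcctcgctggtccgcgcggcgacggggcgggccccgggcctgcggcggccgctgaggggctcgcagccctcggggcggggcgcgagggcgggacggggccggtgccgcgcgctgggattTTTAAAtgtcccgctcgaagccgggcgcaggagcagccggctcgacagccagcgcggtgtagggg
Ccng2, chr5:93267323-93267622, plus strand: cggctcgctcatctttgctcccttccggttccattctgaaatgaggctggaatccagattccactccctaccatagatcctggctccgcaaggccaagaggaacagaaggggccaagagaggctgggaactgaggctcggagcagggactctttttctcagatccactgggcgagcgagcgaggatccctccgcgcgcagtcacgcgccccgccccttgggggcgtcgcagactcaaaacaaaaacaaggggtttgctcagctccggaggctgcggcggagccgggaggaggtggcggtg
The Cdk1 window holds 3 CCAAT matches (read as ATTGG in the printed strand), 2 TTTGAA matches and 1 E2F 8-mer, whereas the Ccng2 window holds none of these letters. Neither the Ccne1 window nor 1 of the windows of Cdkn2c holds CCAAT, and the Ccng2 window does not stand for all lower members, since those of Cdk18 and Cdkn1b hold it. In Cdk1 one TTTGAA match begins 15 bases before the start, in Ccnf 14 and in E2f8 (as TTCAAA) 20. Ccnb1 has a pair of CCAAT matches, 99 and 67 bases before the start, and TTTAAA at 42.

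Windows were found for 54 of the 70 members, 61 windows in all. An E2F 8-mer occurred in 7 of these 61 windows (11.5%), against 2.26% of all 32851 windows in the table, in Cdc25a, Cdk1, Cdk2, E2f2, E2f3, E2f7 and Rbl1. CCAAT occurred in 32 windows (52.5%, against 37.4% of all), TTTGAA in 12 (19.7%, against 17.9%) and TTTAAA in 8 (13.1%, against 13.2%). Among the 10 windows of members called at least 2-fold higher, 8 held CCAAT, 4 TTTGAA and 3 an E2F 8-mer. These windows cover 9 of the 14 such members, and Ccna2 is not among them. Among the 6 windows of members called lower, 2 held CCAAT, 1 held TTTAAA (Cdkn1b), and neither TTTGAA nor an E2F 8-mer was found. A CCAAT match also stood in 11 of 17 windows of members that did not pass. None of these motifs contains another, and a match describes letters only.

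The D cyclins moved in opposite directions. Ccnd1 (chromosome 7, 144929931 to 144939831, build mm10), the main D cyclin of these cells, stood at 973, 1094 and 1215 CPM in LPS plus PE-CUR, against 695, 814 and 698 CPM in LPS. It rose 1.49-fold (log2 fold 0.57, SE 0.09, edgeR adjusted p = 3.98e-04), and every LPS plus PE-CUR library lay above every LPS library. Ccnd3 stood at 61.8, 57.5 and 60.3 CPM in LPS plus PE-CUR, against 31.2, 30.9 and 32.5 CPM in LPS. It rose 1.90-fold (log2 fold 0.93, SE 0.07, edgeR adjusted p = 6.41e-07). Ccnd2, the remaining D cyclin, fell: it stood at 40.9, 35.5 and 38.6 CPM in LPS plus PE-CUR, against 63.7, 59 and 63.9 CPM in LPS (1.62-fold lower; log2 fold -0.70, SE 0.07, edgeR adjusted p = 1.06e-05). No D cyclin overlapped between the groups.

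Levels of different genes are compared per length, in FPKM (scaled to gene length and library size) as the authors deposited them. On this scale the share of Ccnd1 in the summed level of the D cyclins was 89.7, 91.4 and 91.8% in LPS plus PE-CUR, against 90.2, 91.7 and 89.9% in LPS, and the groups overlapped (exact two-sided permutation p = 0.9). The share of Ccnd2 was 1.72, 1.35 and 1.33% in LPS plus PE-CUR, against 3.77, 3.04 and 3.76% in LPS. Ccnd3 took 8.56, 7.22 and 6.85% in LPS plus PE-CUR, against 6.07, 5.23 and 6.29% in LPS. For both smaller shares the groups were fully apart (exact two-sided permutation test, p = 0.1, the smallest that 3 against 3 libraries allow). Ccnd1 (284 ± 26.6 FPKM in LPS plus PE-CUR and 199 ± 17.6 FPKM in LPS) and Cdkn1a (251 ± 18.4 FPKM in LPS plus PE-CUR and 217 ± 19.4 FPKM in LPS) ranked as the highest pair among the 70 members in both groups, with Ccnd1 above in LPS plus PE-CUR and Cdkn1a above in LPS. In LPS the gap between these means was close to the SD of either gene. Within each LPS library, however, Cdkn1a lay above Ccnd1 (199, 238 and 214 FPKM, against 188, 219 and 190 FPKM).

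Partner kinases of the D cyclins, Cdk4 and Cdk6, both passed as higher. Cdk4 (chromosome 10, 127063535 to 127067288) stood at 255, 261 and 265 CPM in LPS plus PE-CUR, against 144, 157 and 142 CPM in LPS (1.76-fold; log2 fold 0.82, SE 0.06, edgeR adjusted p = 6.82e-07). Cdk6 stood at 291, 313 and 309.9 CPM in LPS plus PE-CUR, against 256, 262 and 263 CPM in LPS (1.17-fold; log2 fold 0.23, SE 0.05, edgeR adjusted p = 0.00311). The ratio of their FPKM values, Cdk4 over Cdk6, was 7.47, 7.10 and 7.28 in LPS plus PE-CUR, against 4.79, 5.12 and 4.60 in LPS (exact permutation p = 0.1, the smallest possible). Cdk2, the kinase of the E and A cyclins, stood at 75.1, 74.3 and 73.7 CPM in LPS plus PE-CUR, against 49.3, 53 and 49.9 CPM in LPS (1.47-fold; log2 fold 0.55, SE 0.06, edgeR adjusted p = 1.45e-05). All 3 kinases had every LPS plus PE-CUR library above every LPS library.

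E cyclins, which start DNA replication with CDK2, were both called at least 2-fold higher. Ccne1 (chromosome 7, 38097984 to 38107490) stood at 58.9, 59.5 and 63 CPM in LPS plus PE-CUR, against 23, 27.4 and 22.1 CPM in LPS (2.50-fold; log2 fold 1.32, SE 0.09, edgeR adjusted p = 4.58e-07). Ccne2 stood at 19.1, 38.4 and 31.5 CPM in LPS plus PE-CUR, against 9.71, 8.38 and 6.44 CPM in LPS (3.64-fold; log2 fold 1.86, SE 0.31, edgeR adjusted p = 0.00375). The groups did not overlap for either gene, but Ccne2 was uneven, with LPS plus PE-CUR replicate 1 far below the others of its group. The coefficient of variation of Ccne2 was 32.9% in LPS plus PE-CUR and 20.1% in LPS, against medians of 6.19% and 5.69% over the tested members.

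The cyclins of S phase, G2 and mitosis were among the members furthest above LPS. Ccna2 (chromosome 3, 36564865 to 36573038), which serves both S phase and mitosis, stood at 139, 151 and 158 CPM in LPS plus PE-CUR, against 33.3, 39.4 and 27.8 CPM in LPS. It was 4.46-fold higher, the largest fold of any member (log2 fold 2.16, SE 0.12, edgeR adjusted p = 1.73e-06). Ccnb1 (chromosome 13, 100778739 to 100786486), whose complex with CDK1 drives entry into mitosis, stood at 124, 143 and 147 CPM in LPS plus PE-CUR, against 38, 43.5 and 27.6 CPM in LPS (3.80-fold; log2 fold 1.93, SE 0.18, edgeR adjusted p = 1.60e-04). Ccnb2, a second B cyclin, stood at 66.3, 66.9 and 70.2 CPM in LPS plus PE-CUR, against 22.7, 26.4 and 16.2 CPM in LPS (3.12-fold; log2 fold 1.64, SE 0.17, edgeR adjusted p = 1.28e-04). For each of these cyclins a wide gap separated the lowest LPS plus PE-CUR library from the highest LPS library, which was replicate 2 each time. Summed over Ccna1, Ccna2, Ccnb1, Ccnb2 and Ccnb3, the FPKM level was 139, 145 and 152 in LPS plus PE-CUR, against 41.7, 48.4 and 31.6 in LPS. Divided by the summed D cyclins, that is a ratio of 0.479, 0.472 and 0.445 in LPS plus PE-CUR, against 0.200, 0.203 and 0.150 in LPS (exact permutation p = 0.1, the smallest possible).

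Other members of this group were near the floor or uncertain. Ccna1, the germ line A cyclin, had 31, 26 and 35 counts in LPS plus PE-CUR, against 7, 23 and 22 counts in LPS and did not pass (log2 fold 0.95, edgeR adjusted p = 0.0738); it passed in the fit with no filter on low counts (edgeR adjusted p = 0.0429). Ccnb3 had 0, 0 and 0 counts in LPS plus PE-CUR, against 0, 2 and 0 counts in LPS and was not tested. The pseudogene Ccnb1-ps had 38, 70 and 69 counts in LPS plus PE-CUR, against 7, 22 and 25 counts in LPS and was called higher (log2 fold 1.84, SE 0.44, edgeR adjusted p = 0.00351). The groups did not overlap for Ccna1 or Ccnb1-ps. Ccnb1-ps is a copy of Ccnb1, and reads of near-identical copies can be assigned to either, so its value is uncertain.

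Cdk1 (chromosome 10, 69335146 to 69352912), the kinase of mitosis, moved with its cyclins. It stood at 113, 119 and 124 CPM in LPS plus PE-CUR, against 37.5, 43.7 and 31.8 CPM in LPS (3.14-fold; log2 fold 1.65, SE 0.11, edgeR adjusted p = 1.16e-06). The FPKM ratio of Cdk1 over Cdk2 was 0.916, 0.977 and 1.02 in LPS plus PE-CUR, against 0.465, 0.503 and 0.389 in LPS (exact permutation p = 0.1, the smallest possible). Thus Cdk1 stood near the level of Cdk2 in LPS plus PE-CUR and well under it in LPS. Ccnf, the cyclin that directs a ubiquitin ligase instead of a kinase, stood at 42.9, 38.6 and 43.2 CPM in LPS plus PE-CUR, against 14.7, 17.4 and 11.5 CPM in LPS (2.87-fold; log2 fold 1.52, SE 0.13, edgeR adjusted p = 1.16e-05). Cdkn3, a phosphatase that acts on CDK2, stood at 7.51, 8.81 and 10.2 CPM in LPS plus PE-CUR, against 4.73, 5.30 and 3.48 CPM in LPS (1.96-fold; log2 fold 0.97, SE 0.18, edgeR adjusted p = 7.03e-04). For both the groups stayed apart.

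**Figure D2:**
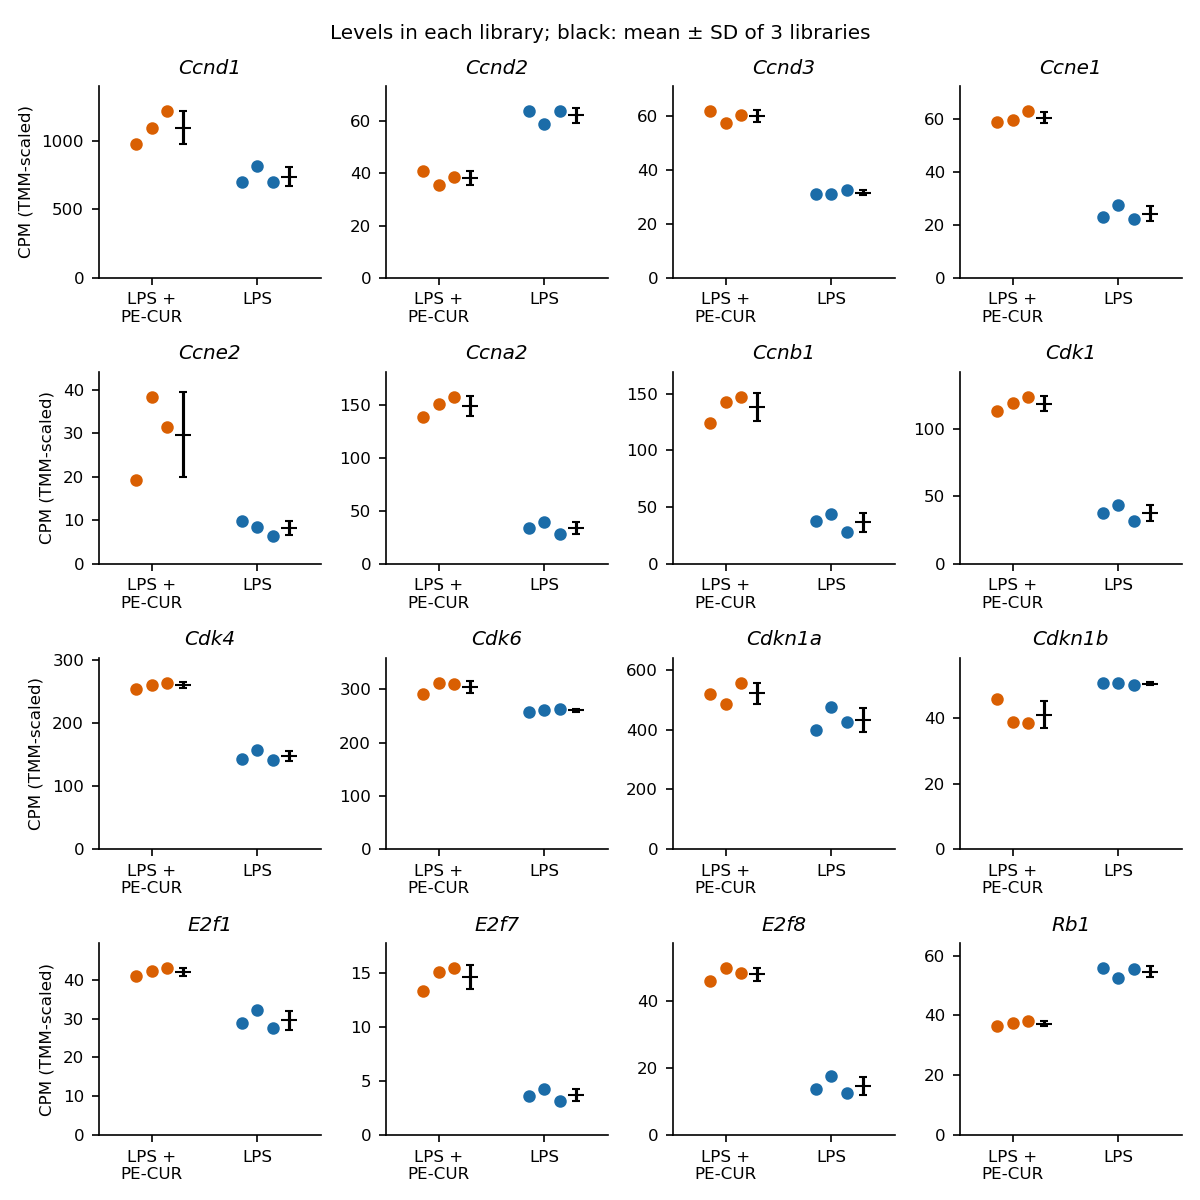
Level in TMM-scaled CPM (vertical axes, from 0) of 16 members in each library, LPS plus PE-CUR in orange and LPS in blue; black bars show the mean ± SD of 3 libraries. The groups do not overlap in any of these 16 panels, and Ccnd2, Cdkn1b and Rb1 are the panels in which LPS plus PE-CUR lies lower.

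Both arms of the switch on CDK1 were higher. Cdc25a, the phosphatase of the G1 to S step, stood at 51, 53 and 56.9 CPM in LPS plus PE-CUR, against 21.3, 23.1 and 22.9 CPM in LPS (2.39-fold; log2 fold 1.26, SE 0.07, edgeR adjusted p = 2.32e-07). Cdc25b, which acts early in mitosis, stood at 72.8, 70.3 and 69.9 CPM in LPS plus PE-CUR, against 45.5, 54 and 43.8 CPM in LPS (1.49-fold; log2 fold 0.57, SE 0.08, edgeR adjusted p = 1.07e-04). Cdc25c stood at 18, 21.7 and 19.9 CPM in LPS plus PE-CUR, against 7.71, 9.72 and 6.33 CPM in LPS (2.51-fold; log2 fold 1.33, SE 0.15, edgeR adjusted p = 2.49e-05). The groups did not overlap for any of them. Cdc25b, the one with the smallest fold, was the largest by FPKM, and its share of the summed Cdc25 level was 51.1, 47.8 and 47.5% in LPS plus PE-CUR, against 60.8, 61.4 and 60.4% in LPS. Wee1, the opposing kinase, stood at 22, 21.1 and 21.9 CPM in LPS plus PE-CUR, against 8.81, 11 and 9.32 CPM in LPS (2.23-fold; log2 fold 1.16, SE 0.10, edgeR adjusted p = 3.29e-06), again without overlap. The FPKM ratio of Cdc25c over Wee1 was 1.32, 1.67 and 1.47 in LPS plus PE-CUR, against 1.42, 1.43 and 1.10 in LPS, which overlapped (exact two-sided permutation p = 0.4). Cdc25a over Wee1 was 2.11, 2.28 and 2.36 in LPS plus PE-CUR, against 2.19, 1.91 and 2.24 in LPS, also with overlap (exact permutation p = 0.4).

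Among CDK inhibitors the direction depended on the gene. Cdkn1a (chromosome 17, 29090979 to 29100722), which encodes the p53 target p21, stood at 519, 487 and 558 CPM in LPS plus PE-CUR, against 399, 477 and 425 CPM in LPS (1.20-fold; log2 fold 0.27, SE 0.08, edgeR adjusted p = 0.00976). The groups came close without overlapping, the highest LPS library and the lowest LPS plus PE-CUR library both being replicate 2. Cdkn1b, which encodes p27, an inhibitor of resting cells, stood at 45.9, 38.9 and 38.3 CPM in LPS plus PE-CUR, against 50.8, 50.6 and 50.03 CPM in LPS (1.23-fold lower; log2 fold -0.30, SE 0.08, edgeR adjusted p = 0.00680). Its groups did not overlap, and LPS plus PE-CUR replicate 1 lay nearest to LPS. The Cdkn1b call ended when LPS plus PE-CUR replicate 2 or 3 was left out (edgeR adjusted p = 0.0576 and 0.0510). Cdkn1c, the third gene of the family, had 1 count in LPS replicate 3 and none elsewhere. The share of Cdkn1a in the summed FPKM of the family was 93, 93.7 and 94.5% in LPS plus PE-CUR, against 90.3, 91.8 and 90.9% in LPS. The summed FPKM itself overlapped between the groups, at 276, 246 and 281 in LPS plus PE-CUR, against 221, 259 and 235 in LPS (exact two-sided permutation p = 0.2).

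The INK4 inhibitors, which bind CDK4 and CDK6, were higher where they were expressed. Cdkn2c, which encodes p18, stood at 23.9, 24 and 28.6 CPM in LPS plus PE-CUR, against 11, 11.6 and 11.1 CPM in LPS (2.27-fold; log2 fold 1.18, SE 0.10, edgeR adjusted p = 1.82e-06). Cdkn2d, which encodes p19 INK4d, stood at 42.6, 40.7 and 46.7 CPM in LPS plus PE-CUR, against 24, 29 and 26.3 CPM in LPS (1.64-fold; log2 fold 0.71, SE 0.09, edgeR adjusted p = 3.58e-05). Both were apart between the groups. Cdkn2b had 1, 1 and 0 counts in LPS plus PE-CUR, against 0, 4 and 0 counts in LPS and was not tested. Cdkn2d was the larger share by FPKM in every library, 73.1, 72.1 and 71.4% in LPS plus PE-CUR, against 76.9, 78.9 and 78.4% in LPS. The summed FPKM of E cyclins over that of CIP/KIP inhibitors was 0.131, 0.165 and 0.144 in LPS plus PE-CUR, against 0.0680, 0.0649 and 0.0579 in LPS (exact permutation p = 0.1, the smallest possible).

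The pocket proteins, which bind E2F factors, were divided. Rb1 (chromosome 14, 73192858 to 73325951), the retinoblastoma gene, stood at 36.4, 37.4 and 38 CPM in LPS plus PE-CUR, against 55.8, 52.5 and 55.5 CPM in LPS (1.46-fold lower; log2 fold -0.55, SE 0.06, edgeR adjusted p = 2.33e-05). Rbl1, which encodes p107 and is itself an E2F target, stood at 80.2, 92.9 and 85.1 CPM in LPS plus PE-CUR, against 60.6, 59.3 and 53.8 CPM in LPS (1.49-fold; log2 fold 0.57, SE 0.07, edgeR adjusted p = 5.41e-05). Rbl2, which encodes p130, stood at 45.2, 42.7 and 42.9 CPM in LPS plus PE-CUR, against 32.8, 34.1 and 34.5 CPM in LPS (1.29-fold; log2 fold 0.37, SE 0.07, edgeR adjusted p = 5.62e-04). None of the pocket protein genes overlapped between the groups. Their summed FPKM was 31.2, 31.7 and 30.8 in LPS plus PE-CUR, against 29.3, 28.6 and 28.6 in LPS, also without overlap. Within that sum Rb1 held 23.7, 22.9 and 24.2% in LPS plus PE-CUR, against 39, 37.5 and 40.1% in LPS, and Rbl1 held 46.7, 50.8 and 48.4% in LPS plus PE-CUR, against 37.9, 37.9 and 34.8% in LPS. Rbl1 over Rb1 was thus 1.97, 2.22 and 2.0 in LPS plus PE-CUR, against 0.971, 1.01 and 0.866 in LPS (exact permutation p = 0.1, the smallest possible).

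Of the 8 E2F genes 6 were higher, 1 was lower and 1 did not pass. Over all genes tested, 30.8% were higher and 32.7% lower. The activators E2f1, E2f2 and E2f3 switch on genes of S phase. E2f1 stood at 41, 42.4 and 43 CPM in LPS plus PE-CUR, against 28.9, 32.4 and 27.6 CPM in LPS (1.42-fold; log2 fold 0.51, SE 0.08, edgeR adjusted p = 1.68e-04). E2f2 stood at 26, 22.1 and 22.1 CPM in LPS plus PE-CUR, against 13, 14.4 and 12.8 CPM in LPS (1.75-fold; log2 fold 0.80, SE 0.10, edgeR adjusted p = 3.20e-05). E2f3 stood at 46.2, 47.4 and 43.8 CPM in LPS plus PE-CUR, against 47.9, 45 and 46.9 CPM in LPS and did not pass (log2 fold -0.02, edgeR adjusted p = 0.777). Groups overlapped for E2f3 and were apart for E2f1 and E2f2.

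E2f4 and E2f5, the partners of p107 and p130, and E2f6, which represses without a pocket protein, differed in direction. E2f4 stood at 77.9, 73.7 and 74.5 CPM in LPS plus PE-CUR, against 50.1, 55.6 and 52.8 CPM in LPS (1.43-fold; log2 fold 0.51, SE 0.06, edgeR adjusted p = 3.98e-05). E2f5 stood at 18.2, 19 and 18.6 CPM in LPS plus PE-CUR, against 12.2, 11.7 and 13.7 CPM in LPS (1.48-fold; log2 fold 0.57, SE 0.09, edgeR adjusted p = 3.09e-04). E2f6 stood at 33.4, 31.2 and 33.9 CPM in LPS plus PE-CUR, against 36.3, 38.5 and 36.9 CPM in LPS (1.13-fold lower; log2 fold -0.18, SE 0.07, edgeR adjusted p = 0.0388). All of these were apart between the groups, E2f6 by the smallest margin. The E2f6 call ended under 12 of 16 alternatives, among them each fit that left out 1 library (edgeR adjusted p from 0.0793 to 0.303). E2f4 was the largest part of the family by FPKM, 46.8, 45.1 and 45.2% in LPS plus PE-CUR, against 47.1, 47.3 and 48.9% in LPS.

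The atypical factors E2f7 and E2f8, repressors that E2F1 itself induces and that close S phase, had the largest folds of the family. E2f7 (chromosome 10, 110745439 to 110787384) stood at 13.4, 15.1 and 15.5 CPM in LPS plus PE-CUR, against 3.65, 4.23 and 3.15 CPM in LPS (3.99-fold; log2 fold 1.99, SE 0.14, edgeR adjusted p = 6.14e-07). E2f8 (chromosome 7, 48866429 to 48882073) stood at 45.8, 49.7 and 48.3 CPM in LPS plus PE-CUR, against 13.7, 17.5 and 12.6 CPM in LPS (3.29-fold; log2 fold 1.72, SE 0.11, edgeR adjusted p = 6.26e-07). Their groups were far apart. The share of E2f8 in the summed FPKM of all E2F genes was 13.8, 15.3 and 14.7% in LPS plus PE-CUR, against 6.49, 7.49 and 5.85% in LPS (exact permutation p = 0.1, the smallest possible). The share of E2f1 was 15.8, 16.7 and 16.8% in LPS plus PE-CUR, against 17.5, 17.7 and 16.5% in LPS, with overlap (exact permutation p = 0.3).

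**Figure D3:**
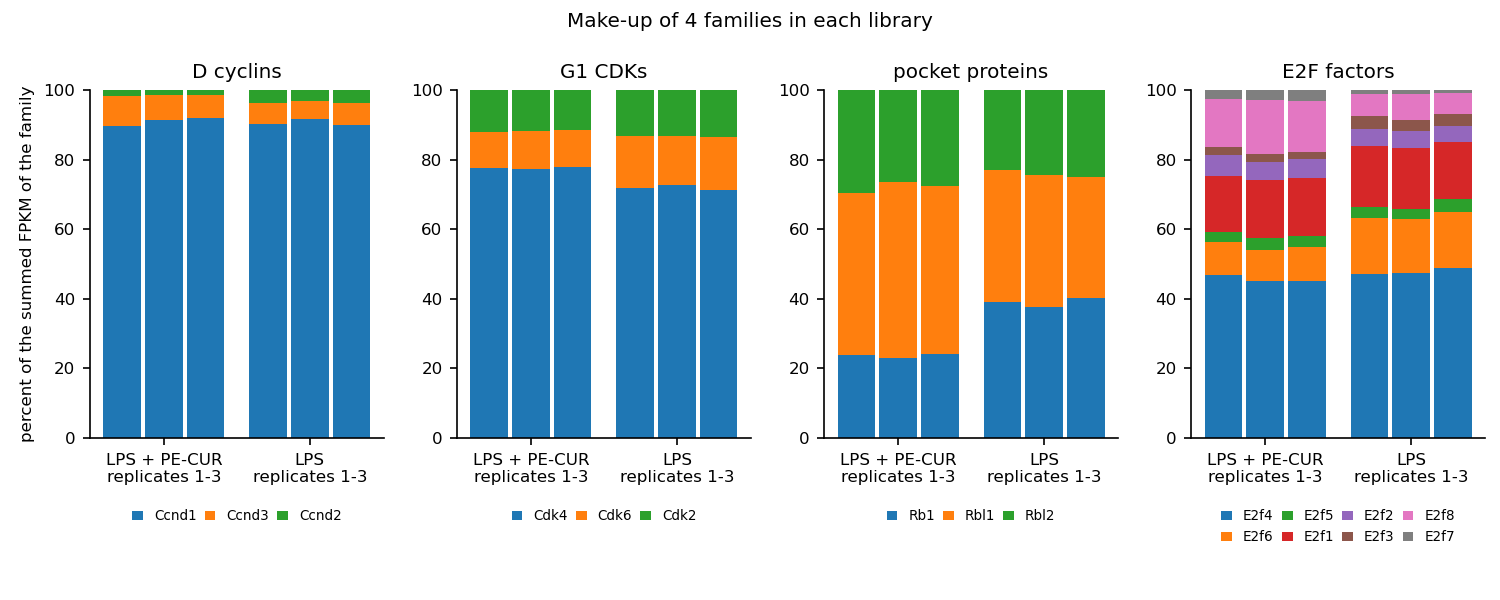
Share of each gene in the summed FPKM of its family (vertical axis, percent) in each of the 6 libraries, LPS plus PE-CUR left and LPS right in each panel. Cdk4 fills 77.3% to 77.8% of the G1 CDKs in LPS plus PE-CUR and 71.2% to 72.7% in LPS, and Rb1 fills 22.9% to 24.2% of the pocket proteins in LPS plus PE-CUR and 37.5% to 40.1% in LPS.

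Cyclins and CDKs that serve transcription and splicing moved little. Of 7 such cyclins, 2 were higher and 5 did not pass (28.6% called, against 63.4% of all genes). Of 6 such CDKs, 3 were higher, 2 lower and 1 did not pass (83.3% called). In P-TEFb, which releases paused RNA polymerase II, Ccnt1 averaged 135 ± 6.88 CPM in LPS plus PE-CUR and 98 ± 6.53 CPM in LPS (1.37-fold; log2 fold 0.46, edgeR adjusted p = 1.29e-04). Its kinase Cdk9 averaged 117 ± 7.04 CPM in LPS plus PE-CUR and 119 ± 4.15 CPM in LPS and did not pass (log2 fold -0.03, edgeR adjusted p = 0.741), nor did the second cyclin of the complex, Ccnt2 (log2 fold 0.11, edgeR adjusted p = 0.354). In the kinase module of Mediator, Cdk8 rose (1.23-fold; log2 fold 0.30, edgeR adjusted p = 9.06e-04), its paralogue Cdk19 fell (1.16-fold lower; log2 fold -0.22, edgeR adjusted p = 0.0149) and their cyclin Ccnc did not pass (log2 fold -0.16, edgeR adjusted p = 0.163). The elongation pair Cdk12 (log2 fold 0.19, edgeR adjusted p = 0.0225) and Ccnk (log2 fold 0.20, edgeR adjusted p = 0.0183) passed as higher and Cdk13 as lower (log2 fold -0.18, edgeR adjusted p = 0.0247). Cdk11b, a kinase of splicing, rose (1.24-fold; log2 fold 0.31, edgeR adjusted p = 5.93e-04), and its cyclins Ccnl1 and Ccnl2 did not pass. Cdk7 and Ccnh, which form the CDK-activating kinase, did not pass either (log2 fold 0.10, edgeR adjusted p = 0.241 for Cdk7 and log2 fold 0.09, edgeR adjusted p = 0.307 for Ccnh).

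Several of these calls depended on the processing, while Ccnt1, Cdk8 and Cdk11b kept theirs under all 16 alternatives. Calls of Ccnk, Cdk12, Cdk13 and Cdk19 each ended under 4 or more of the 16 alternatives: Cdk19 without any 1 library except LPS plus PE-CUR replicate 1, Cdk13 without any 1 library except LPS plus PE-CUR replicate 3, and Cdk12 without LPS plus PE-CUR replicate 3. Ccnl2 (log2 fold 0.19, edgeR adjusted p = 0.0532) passed as higher under 8 of the 16.

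The G cyclins went apart. Ccng1, a p53 target, stood at 241, 297 and 291 CPM in LPS plus PE-CUR, against 224, 227 and 215 CPM in LPS (1.24-fold; log2 fold 0.32, SE 0.08, edgeR adjusted p = 0.00428). Ccng2 (chromosome 5, 93267573 to 93276231), a cyclin linked to arrest of the cycle and high in resting cells, stood at 35.9, 30.4 and 26 CPM in LPS plus PE-CUR, against 62.4, 67 and 66 CPM in LPS. It was 2.12-fold lower, the only member called at least 2-fold lower (log2 fold -1.08, SE 0.10, edgeR adjusted p = 1.01e-05). Both G cyclins had groups that did not overlap.

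Of the 7 remaining CDKs, 4 fell and 3 did not pass. The share lower was 57.1%, against 32.7% of all genes. In either direction 63.4% of all genes were called, so the called share was near that background. Cdk20, a kinase of cilia and growth, stood at 6.65, 6.92 and 7.73 CPM in LPS plus PE-CUR, against 13.4, 12.6 and 13.6 CPM in LPS (1.86-fold lower; log2 fold -0.90, SE 0.11, edgeR adjusted p = 3.83e-05). Cdk18, of the PCTAIRE kinases, stood at 203, 208 and 209 CPM in LPS plus PE-CUR, against 282, 324 and 309 CPM in LPS (1.48-fold lower; log2 fold -0.56, SE 0.06, edgeR adjusted p = 1.44e-05), and its relative Cdk17 fell less (log2 fold -0.32, edgeR adjusted p = 0.00130). Both Cdk20 and Cdk18 were apart between the groups. Cdk5, best known from neurons, averaged 19.2 ± 1.20 CPM in LPS plus PE-CUR and 26.8 ± 1.82 CPM in LPS (1.39-fold lower; log2 fold -0.48, edgeR adjusted p = 5.27e-04). Cdk5r1, the p35 activator of CDK5, was near the floor with 16, 24 and 14 counts in LPS plus PE-CUR, against 24, 24 and 40 counts in LPS (log2 fold -0.59, edgeR adjusted p = 0.160). Cdk10, Cdk14 and Cdk16 did not pass, although Cdk14 (281 ± 11.8 CPM in LPS plus PE-CUR and 308 ± 14 CPM in LPS) passed as lower under 4 alternatives.

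Of the CDK-associated proteins tested, 5 of 9 were higher and 4 did not pass. The share higher was 55.6%, against 30.8% of all genes. In either direction 63.4% of all genes were called, so the called share was near that background. Cdk2ap1, which binds CDK2, stood at 70.1, 62.9 and 73.5 CPM in LPS plus PE-CUR, against 37.9, 37.8 and 37.2 CPM in LPS (1.83-fold; log2 fold 0.87, SE 0.07, edgeR adjusted p = 1.86e-06). Its paralogue Cdk2ap2 stood at 45.3, 31.5 and 22.6 CPM in LPS plus PE-CUR, against 54, 53.9 and 55 CPM in LPS and missed the threshold (log2 fold -0.71, edgeR adjusted p = 0.0603). Its LPS plus PE-CUR libraries were spread widely and lay below every LPS library. Cdk2ap2 passed as lower when LPS plus PE-CUR replicate 1 was left out (log2 fold -0.98) and when replicate 3 of that group was (log2 fold -0.48). With all 6 libraries it passed as lower with DESeq2, with limma on FPKM at either pseudocount, and narrowly with a filter at a mean of 1 CPM. Cdk5rap1, an enzyme of tRNA modification, Cdk5rap2, a protein of centrosomes, and Cdkn2aipnl rose 1.32-fold, 1.18-fold and 1.22-fold. Cdkn2aip and Cdk5rap3 did not pass. Ccnb1ip1, a protein of meiotic recombination, had 1, 2 and 1 counts in LPS plus PE-CUR, against 0, 0 and 1 counts in LPS.

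Within each group, libraries also differed in step. LPS replicate 2 was the highest LPS library in 12 of the 14 members called at least 2-fold higher (85.7%), against 39.6% of all tested genes. LPS plus PE-CUR replicate 1 was the lowest of its group in 12 of the 14 (85.7%), against 37.8% of all tested genes. The ranges of both groups stayed apart in all 14, against 69.0% of all tested genes. These 14 were selected as at least 2-fold higher from the same values, so little overlap could occur. The exons of 33 of the 70 members overlap another annotated gene, 29 of them a gene on the opposite strand, and whether counting used strand is not given in the sources used here. Among them are Ccna2 (Exosc9), Ccne2 (Ints8), Cdk2 (Pmel), Cdk4 (Tspan31), Ccnd3 (Bysl) and Rb1 (Lpar6 and Rcbtb2), whose reads cannot be told apart with certainty there.

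Genes around the family were taken from 7 lists that share no gene with it. The lists, too, were chosen when S phase and mitosis genes were already known to be higher. All 26 classical E2F targets were higher (100%, against 30.8% of all genes, with a median log2 fold of 1.42). Of them, 22 were called at least 2-fold higher (84.6%, against 6.37% of all genes). Tk1, thymidine kinase, averaged 85.5 ± 4.0 CPM in LPS plus PE-CUR and 14.3 ± 1.74 CPM in LPS (log2 fold 2.58, SE 0.09, edgeR adjusted p = 2.08e-08), and Mcm6, a part of the replicative helicase, averaged 236 ± 6.67 CPM in LPS plus PE-CUR and 59 ± 8.01 CPM in LPS (log2 fold 2.00, SE 0.09, edgeR adjusted p = 1.25e-07). Chaf1a and Mcm7 also rose (2.75-fold and 3.45-fold). Of 25 mitotic genes driven late in G2, 24 were higher and 1, Cenpf, did not pass. The share higher was 96%, against 30.8% of all genes, with a median log2 fold of 1.76. With 1 library left out, 21 to 25 of these genes were called higher. Aurka, the centrosomal mitotic kinase, averaged 84.7 ± 2.79 CPM in LPS plus PE-CUR and 19.5 ± 2.29 CPM in LPS (log2 fold 2.12, SE 0.09, edgeR adjusted p = 4.07e-08), and Bub1b, Aurkb and Incenp rose 3.78-fold, 4.52-fold and 3.30-fold. Mki67, the gene of the Ki-67 proliferation antigen, was named after its values were seen: it stood at 194, 677 and 321 CPM in LPS plus PE-CUR, against 96.3, 47.1 and 36.5 CPM in LPS and passed narrowly (log2 fold 2.73, SE 0.70, edgeR adjusted p = 0.0266). Its libraries were spread widely in LPS plus PE-CUR, yet every one lay above every LPS library. The Mki67 call ended when LPS plus PE-CUR replicate 2 or 3 was left out (edgeR adjusted p = 0.0507 and 0.0588) and when LPS replicate 2 or 3 was (edgeR adjusted p = 0.0904 and 0.0859). Cenpf, a kinetochore gene, had a log2 fold of 2.96 and passed when LPS plus PE-CUR replicate 1 was left out (edgeR adjusted p = 0.0468). With all 6 libraries Cenpf passed with DESeq2 (DESeq2 adjusted p = 0.00210) and with limma on FPKM at either pseudocount (limma adjusted p = 0.0122 and 0.0135).

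**Figure D4:**
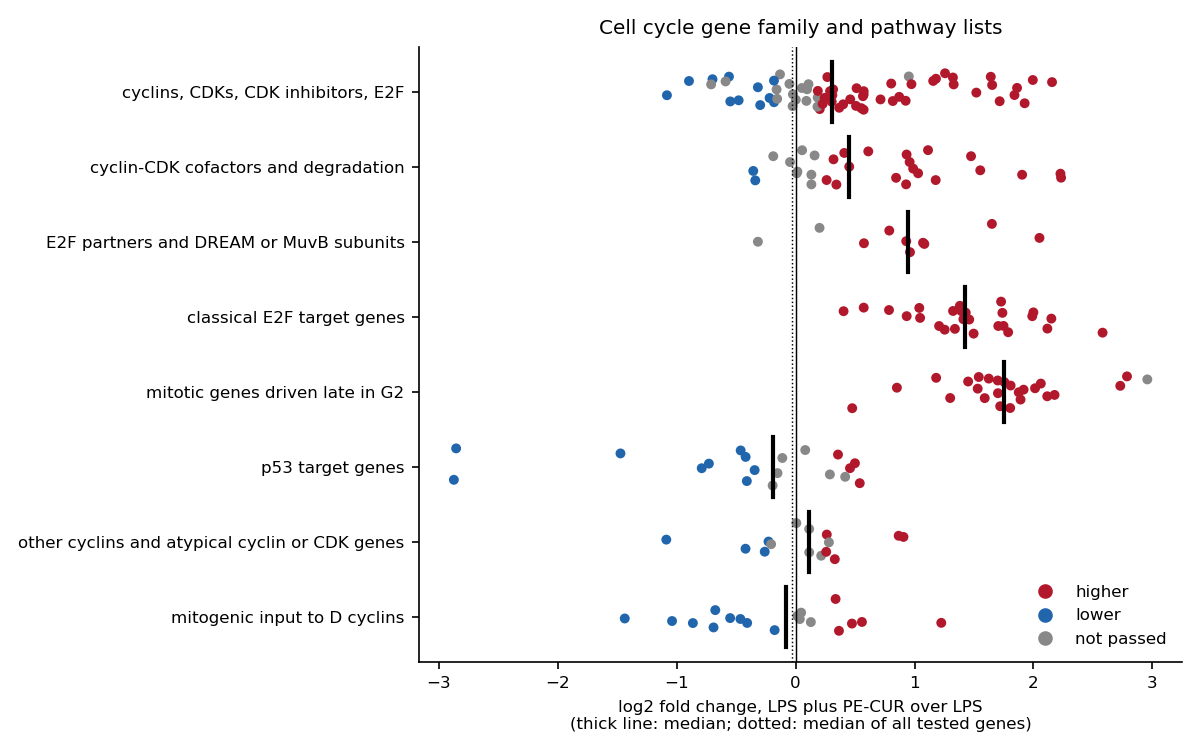
Log2 fold change of LPS plus PE-CUR over LPS (horizontal axis) for each tested gene of the family and of 7 pathway lists, coloured by the edgeR call, with the median of each list as a thick line. E2F targets and mitotic genes lie wholly above 0 with medians of 1.42 and 1.76, p53 targets have a median of -0.19, and all tested genes have a median of -0.03.

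Of 10 genes of E2F partners and of the DREAM and MuvB complexes, 8 were higher and 2 did not pass. The share higher was 80%, against 30.8% of all genes, with a median of 0.95. Tfdp1, the dimer partner of E2F factors, averaged 225 ± 7.45 CPM in LPS plus PE-CUR and 107 ± 5.86 CPM in LPS (2.10-fold; log2 fold 1.07, edgeR adjusted p = 1.93e-07). Mybl2 (4.14-fold; log2 fold 2.05, edgeR adjusted p = 1.92e-06) and Foxm1 (3.14-fold; log2 fold 1.65, edgeR adjusted p = 1.86e-07), which activate mitotic genes together with MuvB, rose, as did Lin54 (1.91-fold; log2 fold 0.93, edgeR adjusted p = 6.02e-07), its DNA-binding subunit. Of 29 cofactors and degradation factors of cyclins 19 were higher, 2 lower and 8 did not pass. These are 65.5% higher and 6.90% lower, against 30.8% and 32.7% of all genes, with a median of 0.45. Fbxo5, an inhibitor of the anaphase-promoting complex, rose 3.74-fold, Bora 2.93-fold, Cks1b, a small subunit of CDKs, 2.26-fold, and Anapc1 1.80-fold. Fbxw7, which marks cyclin E for degradation, fell (log2 fold -0.36, edgeR adjusted p = 9.20e-04), as did Anapc11 (log2 fold -0.34, edgeR adjusted p = 0.0146). Anapc11 lost its call when LPS plus PE-CUR replicate 1 was left out (edgeR adjusted p = 0.0558) and when LPS replicate 2 was (edgeR adjusted p = 0.118), which leaves 1 lower gene in that list.

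The remaining lists did not move one way. Of 19 tested p53 targets 4 were higher, 9 lower and 6 did not pass (21.1% higher and 47.4% lower, against 30.8% and 32.7% of all genes; median -0.19), beside the higher Cdkn1a and Ccng1. Gadd45a, a stress gene, averaged 5.53 ± 0.506 CPM in LPS plus PE-CUR and 40.7 ± 4.20 CPM in LPS (log2 fold -2.87, SE 0.11, edgeR adjusted p = 2.53e-08), and Trp53inp1, Gdf15 and Phlda3 fell as well. Gdf15 was near the floor, at 0.298 ± 0.0452 CPM in LPS plus PE-CUR and 2.18 ± 0.908 CPM in LPS. Zmat3 and Aen rose 1.45-fold and 1.41-fold. Of 18 genes of mitogenic input to D cyclins 5 were higher, 9 lower and 4 did not pass (27.8% higher and 50% lower, against the same 30.8% and 32.7%; median -0.08). Mycn, of the Myc family of growth-promoting transcription factors, averaged 637 ± 32.4 CPM in LPS plus PE-CUR and 273 ± 18.8 CPM in LPS (log2 fold 1.22, SE 0.07, edgeR adjusted p = 1.51e-07), and Mtor rose 1.47-fold. Jun, Fosl1, Csf1 and Gsk3b fell, with log2 fold changes of -1.04, -0.86, -1.44 and -0.55. Myc itself, named beside the genes of smallest p, was also lower (log2 fold -0.46, edgeR adjusted p = 0.00341). Of 15 tested other cyclin and CDK partners 5 were higher (Ccnj, Larp7 and Med12 among them, Med12 not with limma on FPKM), 4 lower (Cdkl3 and Med13 among them) and 6 did not pass (33.3% higher and 26.7% lower; median 0.11). With 60.0% called in either direction, against 63.4% of all genes, that list stood near the background. The 4 lower became 2 when LPS plus PE-CUR replicate 2, LPS replicate 2 or LPS replicate 3 was left out.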

How the data were processed

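The authors deposited raw counts per gene and FPKM for 6 libraries of RAW264.7 cells. Tools named in the submitters' processing notes are fastp, HTSeq, SAMtools and DESeq2, with mm10 as the genome build; aligner and strand setting are not given in the sources used. All 105337 deposited FPKM values above 0 equal rescaled counts within a relative tolerance of 0.0001, so both carry the same measurement. Genes of low count were filtered (filterByExpr), counts were scaled by TMM and tested with the quasi-likelihood test of edgeR 4.0.16 in R 4.3.3, with Benjamini-Hochberg adjustment over all genes tested. CPM values are TMM-scaled. FPKM shares and ratios were compared with exact permutation tests. limma 3.58.1 and DESeq2 1.42.0 served as alternatives, and the fit was tested on simulated data. It recovered 52.2% of 1.5-fold, 87.9% of 2-fold and 100% of 4-fold changes, and 5.42% of its calls were unchanged genes. The simulation changed far fewer genes than were called in the data, so it does not show the error rate here. The precision comes from 3 libraries a group. The family's members and the gene lists were chosen with earlier results of these data known, including that S phase and mitosis genes were higher. Values in every library are given for the main cyclins, CDKs, inhibitors, Cdc25, E2F and pocket protein genes, Wee1, and other members changed at least 2-fold. From each list, genes with the smallest p are named, up to 4 in the majority direction and 2 in the other. Cdkn2a was not analysed here, and a list gene that this rule picks is not reported here.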

Additional observations from a re-analysis of the deposited data

How the results depend on the processing

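Of the 50 called members, 43 passed in the same direction under all 16 alternatives. The other 7 (Ccnk, Cdk12, Cdk13, Cdk19, Cdk5rap2, Cdkn1b and E2f6) lost the call in at least 1. Of the 16 members not called, 6 passed in at least 1. Where the main fit or the alternative passed, 0 members reversed sign. Ccnl1, Cdk9, Cdk16, Cdkn2aip and E2f3 passed in no fit and had values of both signs. Members called higher numbered 39 to 40 and members called lower 7 to 11 when single libraries were left out. Over all genes, these fits called 3746 to 4163 higher and 3447 to 4152 lower. Mitotic genes called higher numbered 21 to 25 in them. Among cofactors and degradation factors, called lower genes numbered 1 to 2 with 1 library left out and 1 in libraries with liver transcripts. Of the E2F partners, 1 was called lower with scaling by library size alone, with a filter at a mean of 1 CPM and with limma on FPKM at either pseudocount (1 or 0.1). Other cyclin genes had 3 called higher with limma at either pseudocount, 2 to 3 called lower with 1 library left out and 2 in libraries with liver transcripts. The cause was not tested. Nothing in the labels says that replicate numbers pair the libraries, and deviations of same-numbered libraries correlated at -0.102, -0.178 and -0.0480. These values show no large effect shared by number, but they cannot show whether cultures were handled in pairs. With a replicate block 38 members were higher and 9 lower, and Mki67 lost its call (edgeR adjusted p = 0.125). Over all genes tested, the median log2 fold lay between -0.09 and 0.02 under every alternative.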
